A study of Mus musculus with 4 samples.

Results

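Nuclear genes for subunits of the respiratory chain and ATP synthase were examined in adipocytes isolated from perigonadal white fat of mice. The 48 genes were taken by symbol from a list of known subunits: 13 of complex I, 4 of complex II, 7 of complex III, 10 of complex IV, 13 of complex V and Cycs, the gene of cytochrome c. All 48 were found among the 55487 genes of the deposited table, and all 48 passed the filter on low values that left 16871 genes for testing. Male mice of genotype CKO were compared with littermate controls, whose genotype label reads WT, both on the standard diet, with 2 RNA sequencing libraries in each group. The series title names BLIMP1, a transcriptional repressor, in macrophages. The labels do not state what the CKO allele removes, the Cre or the cells it acts in, or the animals' age. They also do not say whether each library came from a separate animal, so p-values measure the spread between these libraries only.

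Oxidative phosphorylation couples the oxidation of NADH and succinate to the making of ATP in the inner mitochondrial membrane. Complex I takes electrons from NADH and complex II from succinate, ubiquinone passes them to complex III, cytochrome c carries them on to complex IV, and complex IV hands them to oxygen. Complexes I, III and IV pump protons, and complex V, the ATP synthase, lets the protons back in to drive ATP synthesis. Most subunits are encoded in the nucleus and imported, while a core of subunits of complexes I, III, IV and V is encoded in mitochondrial DNA. In white adipocytes, mitochondria supply ATP and precursors for lipid storage.

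The labels were first checked against cell markers. Recovered reads totalled 25260216 and 26742547 in CKO replicates 1 and 2 and 24152081 and 26145384 in WT replicates 1 and 2. Adipocyte markers (8 genes, such as Adipoq, Plin1 and Cidec, with none at 0) took 4.82% and 3.22% of all reads in CKO replicates 1 and 2, and 2.7% and 0.758% in WT replicates 1 and 2. Macrophage markers (12 genes, such as Adgre1 and Cd68, with none at 0) took 0.168% and 0.369% in CKO against 0.727% and 1.96% in WT. WT replicate 2 therefore had the least of the adipocyte markers and the most of the macrophage markers. Endothelial markers (6 genes) took 0.199% and 0.311% in CKO and 0.164% and 0.0544% in WT. Ucp1, which defines brown and beige fat, had 0 and 2 reads in CKO and 0 and 5 in WT. In bulk RNA, fewer cells of a type and less RNA per cell cannot be told apart.

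The subunit genes took a larger share of reads in 1 CKO library and a smaller one in 1 WT library, and the other libraries were alike. The 48 genes held 1.34% of the reads of CKO replicate 1, 0.996% of CKO replicate 2, 0.998% of WT replicate 1 and 0.794% of WT replicate 2. Wilson intervals at 95%, which cover counting error only, reach at most 0.00835 percentage points to either side of these shares and those of the markers. CKO replicate 2 and WT replicate 1 thus differed little from each other, and the groups overlapped. The order of the libraries in adipocyte markers was the same at both ends, with CKO replicate 1 highest and WT replicate 2 lowest. The part of cell makeup in the subunit levels was not tested.

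**Figure D1:**
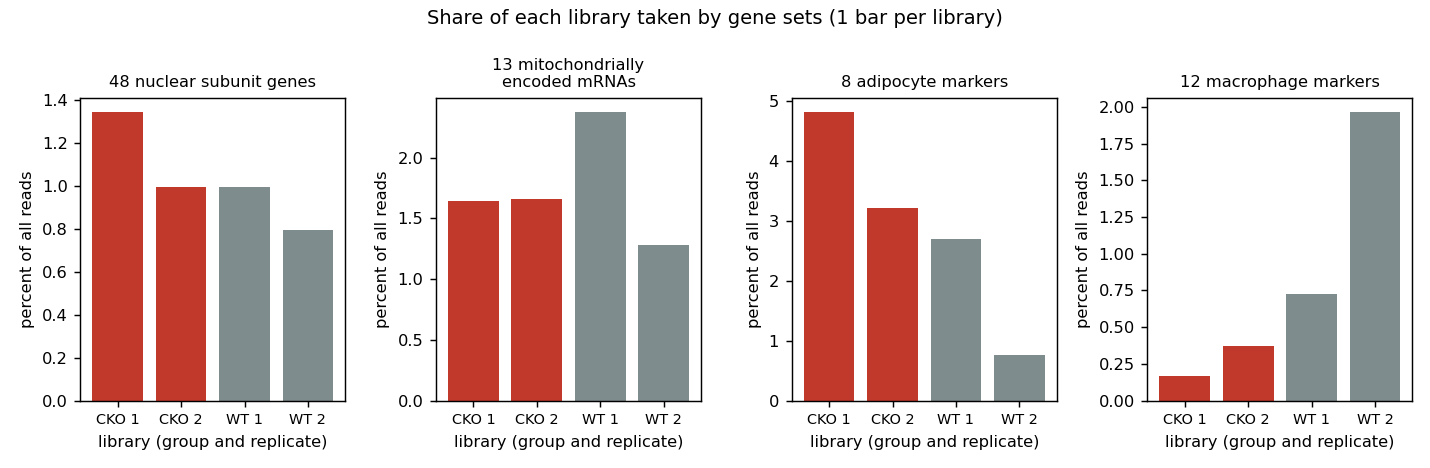
Percent of all reads (y axis) taken by 4 gene sets in each library (x axis, 1 bar per library, CKO in red and WT in grey). The nuclear subunit genes run from 0.794% in WT replicate 2 to 1.34% in CKO replicate 1; the mitochondrially encoded mRNAs are highest in WT replicate 1, and the macrophage markers in WT replicate 2.

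Log2 changes below are the CKO mean less the WT mean of log2(scaled reads + 1), where scaled reads are reads divided by a library's size factor. No subunit gene passed the test. Of the 48, 0 had an adjusted p under 0.05 in limma, against 0.0% of all genes tested, and 0.476 was the smallest adjusted p. By unadjusted p, with 0.05 as the limit, 0 were higher in CKO and 0 lower, where 3.35% of all genes tested were higher and 7.26% lower. These background calls were 566 higher and 1224 lower, and 859 and 855 with the deposited values left unscaled.

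The direction was nevertheless shared by most of the list. The log2 change lay above 0 for 41 of 48 genes (85.4%), beside 51.1% of all genes tested, with a median of 0.22 beside 0.015. Single genes ran from -0.71 for Atp5l to 0.57 for Sdha, and the median standard error was 0.29. The CKO pair exceeded the WT pair without overlap for 12 of 48 genes (25.0%), beside 23.9% of all genes tested, so this share was near the background. Both lay below for 1 of 48, Atp5g1, beside 26.8%.

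By complex, the median was 0.42 for complex I, 0.096 for complex II, 0.26 for complex III, 0.14 for complex IV and 0.15 for complex V, and Cycs was at 0.32. All 13 genes of complex I and all 7 of complex III were above 0, against 3 of 4 in complex II, 7 of 10 in complex IV and 10 of 13 in complex V. With values left unscaled, the medians of complexes I to V in turn were 0.55, 0.23, 0.40, 0.28 and 0.28, beside 0.15 for all genes tested. In that setting 9 of 10 genes of complex IV were above 0. Within a complex the genes spread widely. Complex II ran from -0.046 to 0.57 and complex V from -0.71 to 0.47, while complex I ran from 0.037 to 0.54. With 2 libraries against 2 an exact permutation test cannot go below a two-sided p of 0.33, so differences between complexes were not tested and are given as a description.

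**Figure D2:**
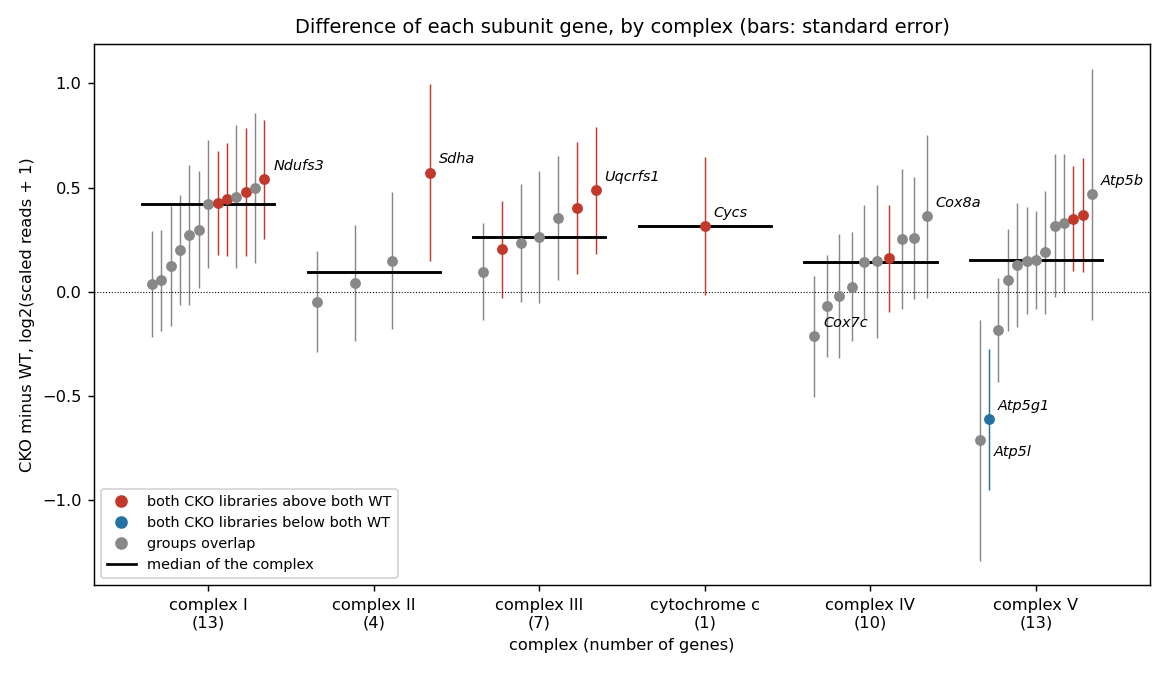
Log2 difference between CKO and WT (y axis, log2 of scaled reads + 1) of each of the 48 genes, grouped by complex (x axis); points are genes with limma's standard error, and black lines are medians of a complex. Red points are the 12 genes whose CKO libraries both lie above the WT libraries, and the 1 blue point is Atp5g1; the Atp5l and Atp5g1 points are the lowest, at -0.71 and -0.61.

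Across libraries the genes shared their highest library more than their lowest. CKO replicate 1 was the highest library for 42 of 48 genes (87.5%), beside 27.0% of all genes tested, and WT replicate 2 the lowest for 27 (56.3%), beside 38.2%. CKO replicate 2 was highest for 0 of the 48, beside 3600 of the 16871 genes tested. It was lowest for 17 genes (35.4%), beside 16.4% of all genes tested, 7 of the 10 of complex IV among them. When every gene was centred on its own 4-library mean, the medians of CKO replicates 1 and 2 were 0.33 and -0.097 and those of WT replicates 1 and 2 -0.050 and -0.14. CKO replicate 2 exceeded WT replicate 1 in only 15 of 48 genes (31.3%), beside 48.9% of all genes tested.

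The size of the difference thus moved with the libraries used. Without CKO replicate 1 the median over the 48 genes was 0.010 with 26 above 0, and the medians of complexes II, IV and V were -0.12, -0.13 and -0.0058. In complexes I to V in turn, 9 of 13, 1 of 4, 6 of 7, 3 of 10 and 6 of 13 genes were then above 0. Without CKO replicate 2 it was 0.44 with 45 above 0. Leaving out WT replicate 1 or WT replicate 2 gave 0.24 and 0.16, with 41 and 42 genes above 0. Complex I had the highest median of complexes I to V with all libraries and without 3 of the 4 libraries in turn. Without WT replicate 2 complex III was highest, at 0.25 against 0.23 for complex I.

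**Figure D3:**
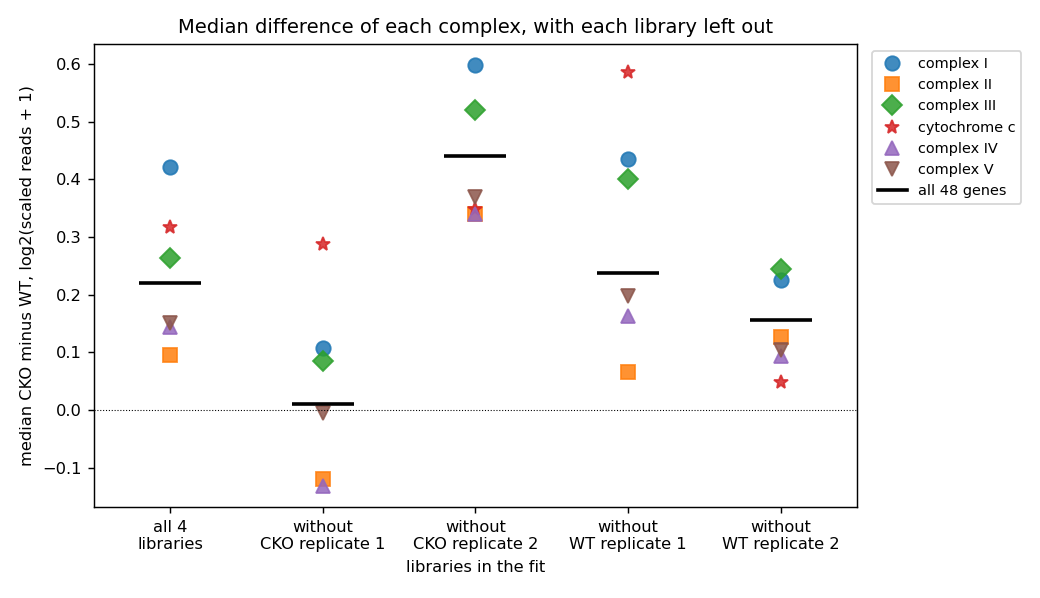
Median log2 difference between CKO and WT (y axis) of the genes of each complex, with all 4 libraries and with each left out in turn (x axis); black bars are medians over all 48 genes. All points but that of Cycs lie near or below 0.1 without CKO replicate 1, and all lie above 0.3 without CKO replicate 2.

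**Figure D4:**
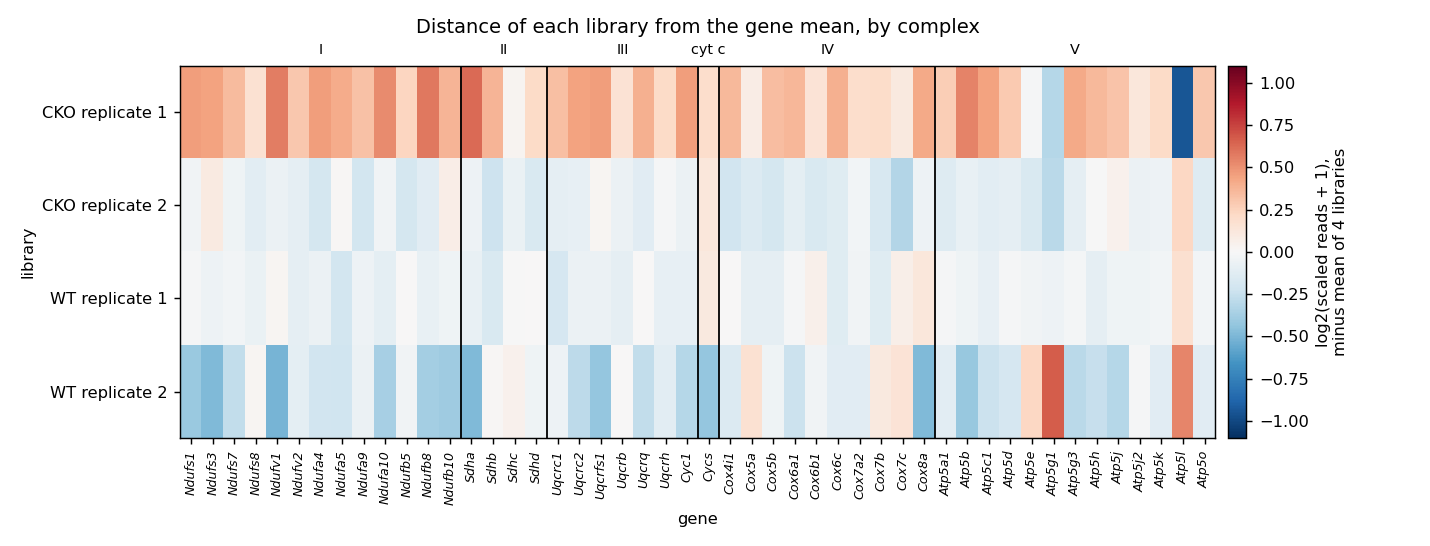
Distance of each library (rows) from the gene's mean over the 4 libraries, on a log2 scale (colour, red above and blue below), for the 48 genes by complex (columns). The row of CKO replicate 1 is red for nearly every gene, and the columns of Atp5g1 and Atp5l run the other way, with WT replicate 2 highest.

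Complex I has a peripheral arm, whose N module binds NADH and whose Q module reaches ubiquinone, and a membrane arm that pumps protons. The N module genes Ndufs1, Ndufv1 and Ndufv2 had log2 changes of 0.42, 0.50 and 0.20. In the Q module, Ndufs3, a core subunit beside the iron-sulfur chain (chromosome 2, 90894634 to 90904827 on GRCm38), had 1026 and 891 reads in CKO replicates 1 and 2 and 699 and 514 in WT replicates 1 and 2. The groups did not overlap. Scaled, CKO averaged 917 ± 156 and WT 633 ± 131 (SD, n = 2), which gave a log2 difference of 0.54 (SE 0.28; limma adjusted p 0.476), the smallest p of the list. Without WT replicate 2 it was 0.33.

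Ndufa5, an accessory subunit of the same module (chromosome 6, 24518666 to 24528013), had 2101 and 1767 reads in CKO and 1322 and 1290 in WT. These groups were also apart, and its log2 change was 0.43 (SE 0.25; limma adjusted p 0.497), and 0.23 without CKO replicate 1. Of the other Q module genes, the iron-sulfur subunit genes Ndufs7 and Ndufs8 were at 0.30 and 0.056, and Ndufa9 at 0.12. In the membrane arm, Ndufa10, Ndufb8 and Ndufb10 were at 0.48, 0.46 and 0.44, while Ndufb5, with 1969 and 1616 reads in CKO and 1620 and 1551 in WT, was the lowest of complex I at 0.037. The medians of the N module, Q module and membrane arm were 0.42, 0.30 and 0.45.

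Ndufa4 was named for complex I and is now known as a subunit of complex IV. It had the highest level per length of the complex I genes as listed, with 8374 and 5897 reads in CKO and 5625 and 4999 in WT, which overlapped once scaled, and a log2 change of 0.27, which was -0.053 without CKO replicate 1. Counting it with complex IV left the medians at 0.42 for complex I and 0.15 for complex IV.

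Complex II is also the succinate dehydrogenase of the citric acid cycle and is encoded wholly in the nucleus. Sdha, its flavoprotein (chromosome 13, 74322254 to 74350280), had 23055 and 15904 reads in CKO and 13581 and 10150 in WT. CKO replicate 2 and WT replicate 1 were close once scaled, at 14406 and 14102. The log2 change was 0.57 (SE 0.42; limma adjusted p 0.560), the highest of the 48 genes. Leaving out CKO replicate 1 gave 0.23 and leaving out WT replicate 2 gave 0.37, where Ndufs3 and Ndufa5 in turn were highest, at 0.37 and 0.42. The iron-sulfur subunit gene Sdhb had 8297 and 6053 reads in CKO and 5512 and 6159 in WT, so its groups overlapped, with a log2 change of 0.15, and -0.15 without CKO replicate 1. The membrane anchor genes were nearer to 0. Sdhc had 4292 and 4426 reads in CKO and 4062 and 4145 in WT (-0.046), and Sdhd had 6177 and 5272 in CKO and 5182 and 4924 in WT (0.043). Sdhc was above 0 when values were left unscaled (0.087), scaled by total reads (0.038) or quantile normalised (0.072).

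Complex III passes electrons from ubiquinol to cytochrome c through the Rieske iron-sulfur protein, encoded by Uqcrfs1, and cytochrome c1, encoded by Cyc1. Uqcrfs1 (chromosome 13, 30540308 to 30545362) had 6410 and 5241 reads in CKO and 4308 and 3301 in WT, with both CKO libraries above both WT libraries once scaled. Scaled, CKO averaged 5584 ± 1184 and WT 3972 ± 709 (SD, n = 2), which gave a log2 difference of 0.49 (SE 0.30; limma adjusted p 0.515), and of 0.27 and 0.30 without CKO replicate 1 or WT replicate 2. Cyc1 (chromosome 15, 76343523 to 76346260) had 8526 and 6557 reads in CKO and 5603 and 4757 in WT, a log2 change of 0.40 that was 0.14 without CKO replicate 1. The core protein genes Uqcrc1 and Uqcrc2 were at 0.23 and 0.35. Of the small subunits, Uqcrq and Uqcrh were at 0.26 and 0.21, and Uqcrb, with 2387 and 2252 reads in CKO and 1921 and 2032 in WT, was the lowest of the complex at 0.097.

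Cycs (chromosome 6, 50562563 to 50566538) had 300 and 318 reads in CKO and 274 and 186 in WT. The CKO libraries and WT replicate 1 were close, at 301, 288 and 285 scaled reads, and WT replicate 2 was lower, at 196. The log2 change was 0.32 (SE 0.33; limma adjusted p 0.671), and 0.048 without WT replicate 2.

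Complex IV surrounds a core encoded in mitochondrial DNA with small nuclear subunits. Cox8a, which had the highest level per length of all 48 genes (chromosome 19, 7215153 to 7217616), had 13976 and 11125 reads in CKO and 11013 and 7105 in WT. Its groups overlapped, with a log2 change of 0.36 (SE 0.39; limma adjusted p 0.681), the highest of the complex and that of smallest p. Leaving out CKO replicate 1 gave 0.12 and leaving out WT replicate 2 gave 0.055. Cox6c had 5699 and 4360 reads in CKO and 3817 and 3786 in WT and a log2 change of 0.26, and -0.0083 without CKO replicate 1. Cox6a1 and Cox4i1, the ubiquitous isoforms of subunits VIa and IV, were at 0.25 and 0.15, Cox7a2 at 0.16, Cox5b at 0.14 and Cox7b at 0.025. Below 0 were Cox6b1 at -0.018, Cox5a at -0.066 and Cox7c at -0.21. Cox6b1 and Cox5a were above 0 when values were left unscaled (0.12 and 0.067), scaled by total reads (0.067 and 0.019) or quantile normalised (0.095 and 0.038). Cox7c had 437 and 357 reads in CKO and 407 and 428 in WT, so its groups overlapped.

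Complex V has a catalytic F1 head on a central stalk, a peripheral stalk that holds the head still, and a membrane part with a ring of c subunits. Atp5b, which encodes the catalytic beta subunit (chromosome 10, 128083273 to 128090391), had by far the most reads of the 48 genes, 69464 and 49838 in CKO and 44374 and 33888 in WT. The groups overlapped once scaled, and the log2 change was 0.47 (SE 0.60; limma adjusted p 0.728), and 0.16 without CKO replicate 1. Of the other F1 genes, Atp5c1, Atp5d and Atp5a1 were at 0.33, 0.19 and 0.13 and Atp5e at -0.18. Among the peripheral stalk genes, Atp5h (chromosome 11, 115415689 to 115419962) had 2756 and 2376 reads in CKO and 1943 and 1722 in WT, a log2 change of 0.35 (SE 0.25; limma adjusted p 0.550) with groups apart, and 0.17 without CKO replicate 1. Atp5j was at 0.37, also with groups apart, and Atp5o at 0.15. The small membrane subunit genes Atp5k and Atp5j2 were at 0.15 and 0.057, and Atp5l at -0.71. Atp5l had 22 and 56 reads in CKO and 47 and 60 in WT, the fewest of the list, and its log2 change was -0.13 without CKO replicate 1 and -1.29 without CKO replicate 2.

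The c subunit is encoded by 3 genes, Atp5g1, Atp5g2 and Atp5g3, whose precursors differ in the peptide that directs import. Translated from GENCODE M21 transcripts, the last 75 residues of the 3 precursors were identical, 75 of 75 in each pair, while the coding bases of that stretch were 80.0% identical between Atp5g1 and Atp5g3 and 84.9% between Atp5g1 and Atp5g2. No run of 50 bases was shared between any 2 of them. With transcripts of other genes, 11.1% of the 50-base stretches of Atp5g1, 38.3% of Atp5g2 and 0% of Atp5g3 were shared. The last 90 coding bases before the stop codon are shown because they make the same protein end from different letters. These letters set the 3 genes apart from each other. The stretches of 90 bases lie on the minus strand of GRCm38 at chr11:96073107-96073196, chr15:102663017-102663106 and chr2:73908596-73908685 in turn. Capitals mark the 17 bases of Atp5g1 and the 23 of Atp5g2 that differ from Atp5g3.
Atp5g1: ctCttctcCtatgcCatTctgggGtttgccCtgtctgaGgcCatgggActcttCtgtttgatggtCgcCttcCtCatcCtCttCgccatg
Atp5g2: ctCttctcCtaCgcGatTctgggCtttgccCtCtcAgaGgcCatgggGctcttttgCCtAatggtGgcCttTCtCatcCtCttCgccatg
Atp5g3: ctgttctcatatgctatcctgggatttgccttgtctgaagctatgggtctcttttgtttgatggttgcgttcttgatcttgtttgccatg

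The c subunit genes did not run together across libraries. Atp5g3 (chromosome 2, 73908447 to 73911326) supplied most reads, 12516 and 9691 in CKO and 8899 and 7287 in WT, with CKO replicate 1 highest and WT replicate 2 lowest, and a log2 change of 0.32 that was 0.061 without CKO replicate 1. Atp5g1 (chromosome 11, 96068852 to 96075670) ran the other way, with 339 and 381 reads in CKO and 393 and 638 in WT. Scaled, CKO averaged 342 ± 3.89 and WT 539 ± 186 (SD, n = 2). On the log2 scale the difference was -0.61 (SE 0.34; limma adjusted p 0.484), and -0.25 without WT replicate 2. Atp5g2, which is outside the list of 48, had 42 and 34 reads in CKO and 34 and 34 in WT.

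Of the reads of the 3 c subunit genes, Atp5g1 held 2.63% (95% Wilson interval 2.37 to 2.92) in CKO replicate 1 and 3.77% (3.42 to 4.16) in CKO replicate 2. It held 4.21% (3.82 to 4.64) in WT replicate 1 and 8.02% (7.44 to 8.63) in WT replicate 2. The intervals of CKO replicate 2 and WT replicate 1 overlapped, while WT replicate 2 stood well above the other libraries. This order is that of the macrophage markers and the reverse of that of the adipocyte markers, and the part of either was not tested.

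Levels are compared between genes as reads per exon length, scaled to the same sum in every library as in TPM. The median level of the 48 genes was 218, beside 10.8 over the tested genes with a length. Cox8a, Cox6a1, Atp5b and Cox6b1 led, at 1876, 1455, 1251 and 1241 as means of the 4 libraries. Their ranges over libraries overlapped, from 1205 to 2417 for Cox8a and from 1129 to 1833 for Cox6a1. By complex the median level was 176 for complex I, 359 for complex II, 263 for complex III, 387 for complex IV and 206 for complex V. Lengths are those of all annotated exons together, which lowers the level of genes with long rare transcripts.

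At the foot of the order stood Atp5g1, Cycs and Atp5l, at 9.54, 8.50 and 0.768, although their products are standing parts of the same chain. Several such genes share sequence with other genes. Of all stretches of 50 bases in the protein-coding transcripts of Atp5l, 84.8% also occur in a transcript of another gene on either strand, in 14 genes in all. The share was 28.5% for Cycs, over 76 genes, 23.0% for Cox7c and 11.1% for Atp5g1, and 0% for Cox8a, Sdha and Ndufa4. The 10 genes with more than 20% shared had a median level of 97.8 and the other 38 a median of 255. The sources used here do not say how reads matching several genes were counted, and levels of Atp5l, Cycs, Atp5o, Uqcrb, Ndufs3, Atp5h, Cox5a, Uqcrc2, Cox7c and Cox5b are uncertain for that reason. The median log2 change was 0.24 over the 38 genes and 0.15 over the 10. For 14 of the 48, Ndufs3 among them, exons overlap those of a gene on the opposite strand, and whether strand was used in counting is likewise not given.

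**Figure D5:**
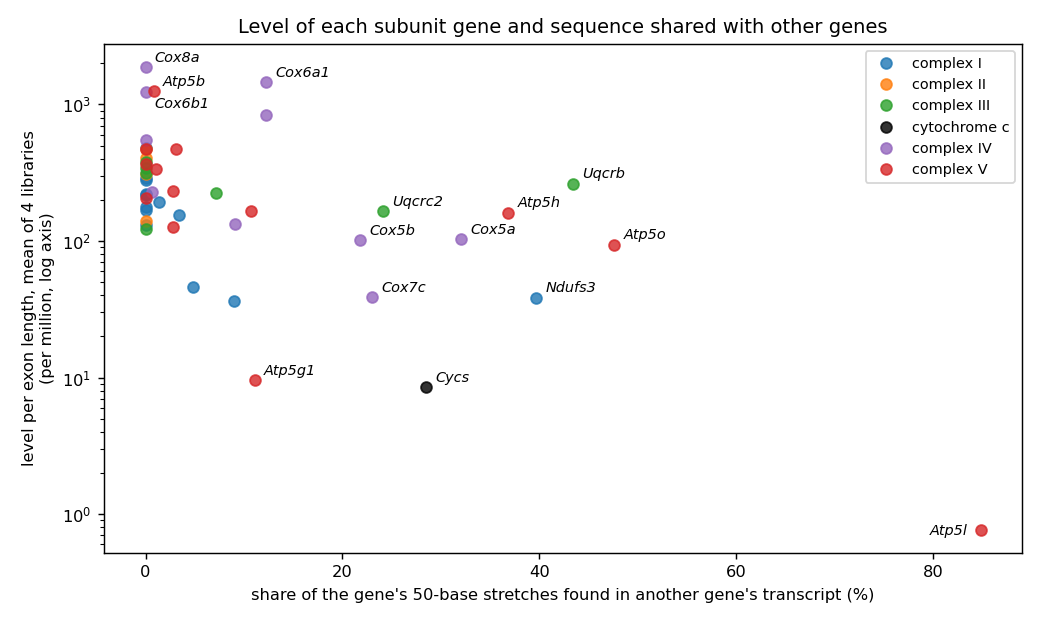
Level of each of the 48 genes per exon length (y axis, mean of 4 libraries, TPM scale, log axis) against the share of its 50-base stretches found in transcripts of other genes (x axis, percent), coloured by complex. The 4 genes of highest level have at most 12.3% shared, and Atp5l, with 84.8% shared, has the lowest level.

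Promoters of nuclear subunit genes are known for sites of the factors NRF1, GABP, ERR and YY1. In RefSeq's promoter table (build GRCm38.p6), 39 of the 48 genes had an entry, and the 250 bases before the start site were searched on both strands. The NRF1 core CGCATGCG, which reads the same on both strands, was found for 5 of 39 genes (12.8%), beside 1.75% of 27025 genes in the table. These were Cycs, Cox6a1, Atp5j, Atp5k and Atp5l. The ERR site TCAAGGTCA was found for Atp5g3 alone (2.56%, beside 0.422%), the YY1 site AAGATGGC for Atp5j alone (2.56%, beside 1.83%), and the ETS or GABP site ACCGGAAGT for 0 of 39, beside 0.892%. These are matches of letters, and none of the 18 genes of complexes I, II and III with an entry held any of them. None of the 4 motifs contains another.

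The stretches of 60 bases around a match are shown for Cycs, Atp5k and Atp5g3, as examples of the match in the carrier, in the synthase and beside the Atp5g1 paralogue just described. They lie on the minus strand at chr6:50566597-50566656, chr5:108434415-108434474 and chr2:73911345-73911404, with the match beginning 61, 49 and 52 bases before the start site. Capitals mark the match, which in Atp5g3 is on the opposite strand of the gene.
Cycs: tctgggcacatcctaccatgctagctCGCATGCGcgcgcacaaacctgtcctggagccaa
Atp5k: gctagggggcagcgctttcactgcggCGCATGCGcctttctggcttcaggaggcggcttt
Atp5g3: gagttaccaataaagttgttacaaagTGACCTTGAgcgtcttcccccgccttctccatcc

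Of the remaining nuclear subunits, 0 passed the adjusted threshold, and differences between their complexes were not tested. Of 24 further complex I genes tested, 22 were above 0 (median 0.19), led by Ndufb9 at 0.49, with Ndufa11 at -0.088. Both further complex III genes were above 0, Uqcr11 at 0.24. CKO replicate 1 was highest for 22 of these 24 genes and for both of complex III. Without it 16 of 24 were above 0 (median 0.029) and 0 of 2. Of 5 further complex V genes 1 was above 0, Atp5g2 at 0.019. It was 4 of 5 with values left unscaled or without WT replicate 2, and 0 of 5 without CKO replicate 1. The lowest was Atpif1, which encodes the protein that blocks ATP hydrolysis by the synthase. Of the 50-base stretches of Atpif1, 30.3% occur in transcripts of other genes. Atpif1 had 662 and 942 reads in CKO and 1176 and 3280 in WT, with groups apart, a log2 change of -1.45 (SE 0.54) and an unadjusted p of 0.0436 in limma (adjusted p 0.459). Its highest library was WT replicate 2, where macrophage markers also took the largest share and adipocyte markers the smallest. The part of either was not tested.

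Other isoforms of complex IV subunits had at most 498 reads in a library, apart from Cox7a2l. Cox6a2, the isoform of heart and skeletal muscle, had 4 and 10 reads in CKO and 34 and 105 in WT, a log2 change of -3.16 (SE 0.77) with an unadjusted p of 0.00967 in limma (adjusted p 0.459). Its reads rank the libraries as the macrophage markers do and in reverse of the adipocyte markers. Skeletal muscle markers (3 genes) took the smallest share in WT replicate 2, 0.00111%. Of the 50-base stretches of Cox6a2, 3.33% also occur in a transcript of Itgad. The part of these cell types and of the shared sequence was not tested. Cox7a1 and Cox8b, which are abundant in brown fat and muscle, had 46 and 77 and 148 and 212 reads in CKO, and 130 and 101 and 498 and 173 in WT. Their log2 changes were -1.06 and -0.86. Cox4i2 was at 1.03, Cox6b2 at 0.69 and Cox7a2l at -0.33, and Cox7b2 and Cox8c were too low to be tested, with at most 13 reads in a library.

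Assembly factors, which build the complexes and are not part of them, were split. Of 45 tested, 26 were above 0 (median 0.036) and 0 passed the adjusted threshold. For complex I 10 of 14 were above 0 (Foxred1 at 0.41, Nubpl at -0.084), and for complex II 2 of 4 (Sdhaf1 at 0.31, Sdhaf4 at -0.32). For complex III it was 5 of 6 (Ttc19 at 0.42, Uqcc2 at -0.33), and for complex V 3 of 3 (Atpaf1 at 0.43). Without WT replicate 2 it was 3 of 6 for complex III (median 0.027) and 1 of 3 for complex V (median -0.080). Without CKO replicate 1 it was 7 of 14 for complex I (median -0.0076). Without WT replicate 1 the medians for complexes I, III and V were higher, at 0.18, 0.31 and 0.50. Factors of complex IV were mostly below 0 in the main fit, with 6 of 18 above and a median of -0.16 (Surf1 at 0.30, Coa4 at -0.80). Without CKO replicate 2 it was 9 of 18 (median 0.031), and without CKO replicate 1 it was 3 of 18 (median -0.16). With values left unscaled it was 9 of 18 (median -0.028). Sco2, Cox20 and Pet117 were listed at 0 in all libraries, and 88.2%, 68.2% and 100% of their 50-base stretches occur in transcripts of other genes.

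None of the 13 transcriptional regulators tested passed the adjusted threshold, and 8 were above 0. Ppargc1a, the coactivator that drives mitochondrial biogenesis, had 249 and 94 reads in CKO and 77 and 39 in WT, with a log2 change of 1.33 (SE 0.68; limma adjusted p 0.471). Its relative Ppargc1b was at 0.90 and Nrip1, a corepressor of oxidative genes in fat, at 1.24. All of these were highest in CKO replicate 1, the library highest for the subunits. Without that library 6 of the 13 regulators were above 0 (median -0.052, beside 0.046 with all libraries). The part of any regulator in the subunit levels was not tested. The factors whose sites were searched were nearer to 0, with Nrf1 at 0.046, Gabpa at -0.075, Gabpb1 at 0.27, Yy1 at 0.091 and Esrra at -0.36. Tfam, which packs mitochondrial DNA, was at 0.17, Tfb1m at -0.50, Tfb2m at 0.041, Polrmt at -0.14 and Pprc1 at -0.15.

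Other mitochondrial proteins were divided, with 4 of 9 above 0. Cs, the citrate synthase gene, was at 0.39 and the nucleotide carrier gene Slc25a4 at 0.38, while the outer membrane channel genes Vdac1 and Vdac2 were at -0.26 and -0.47. The subunit mRNAs encoded in mitochondrial DNA took 1.65% and 1.66% of reads in CKO and 2.37% and 1.28% in WT, so WT replicate 1 was highest. Of 8 tested, 2 were above 0 (median -0.19), with mt-Nd6 at 0.17 and mt-Nd3 at -0.35. Without WT replicate 1 it was 7 of 8 (median 0.18), and without WT replicate 2 it was 0 of 8 (median -0.55). With quantile normalisation it was 4 of 8 (median 0.060). Of the 50-base stretches of mt-Nd3, 98.0% occur in transcripts of other genes. The 5 not tested, mt-Nd4l, mt-Co2, mt-Co3, mt-Atp6 and mt-Atp8, were listed at 0 in every library. Of their 50-base stretches, 98.8%, 100%, 99.9%, 99.5% and 0% occur in transcripts of other genes. The nuclear and mitochondrial subunit mRNAs thus had different highest libraries, CKO replicate 1 and WT replicate 1, and their ratio was not tested.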

How the data were processed

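RNA of adipocytes from 4 mouse samples, 2 CKO and 2 WT, was sequenced. Per the submitters' processing notes, the tools were STAR 2.7.5c and FastQC and the build was GRCm38.p6. No label or header names the counting tool. The deposited log2 values, which the authors call normalised counts, were log2(reads + 1) within 0.01 for 100% of genes, so whole reads were recovered. Every column was used. Reads were divided by size factors (median ratio over 19847 genes, 0.951 to 1.10), and log2(scaled reads + 1) of the 16871 genes with a mean deposited value of at least 3 was fitted on group with limma 3.58.1 in R 4.3.3 (trend, two-sided), with Benjamini-Hochberg adjustment over all of them at 0.05. The fit had 2 residual and 2.92 prior degrees of freedom. The pseudocount of 1 understates changes of low genes. Where a symbol stood on several rows (112 symbols, Atp5o among them), the row of highest mean was used. Coordinates and exon lengths come from GENCODE M21 (99.3% of rows matched). The 48 genes and the lists were chosen with earlier results of these data known. The fit was tested on simulated reads, with a spread between libraries that was set and not taken from these data. That test does not show how large a change could be detected here. By rule, every subunit gene has its log2 change given. Reads by library are given, in each complex, for the 2 genes of smallest p, the highest per length and the lowest change, and for Cycs and the c subunit genes. Of each further list the gene of smallest p in each direction is named, and all regulators and complex IV isoforms. Other genes are named for their role. Other settings tried were filters, scalings, a pseudocount of 10, no trend, a robust fit, voom weights and each library left out. No batch is named in the labels.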

Additional observations from a re-analysis of the deposited data

How the results depend on the processing

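No paired analysis was possible because the labels give no shared replicate numbers. With each library left out, genes past the adjusted threshold ranged from 0 to 1775, the latter without WT replicate 1, where the spread comes from the CKO libraries alone and the single WT sample is taken to vary as they do, and 0 of the 48 passed. Genes at an unadjusted p under 0.05 ranged from 122 to 2875 higher and from 212 to 2876 lower, and subunit genes at that p from 0 to 2. Subunit genes above 0 ranged from 26 to 45 and their median from 0.010 to 0.44. Medians ranged from 0.11 to 0.60 for complex I, -0.12 to 0.34 for complex II, 0.086 to 0.52 for complex III, -0.13 to 0.34 for complex IV and -0.0058 to 0.37 for complex V. Without CKO replicate 1, 15 of the 48 turned below 0; without CKO replicate 2, 4 turned above 0; without WT replicate 1, 1 turned each way; without WT replicate 2, 1 turned above 0. Of the genes given by library, those whose sign turned ranged from -0.053 to 0.60 (Ndufa4), -0.18 to 0.25 (Ndufb5), -0.15 to 0.45 (Sdhb), -0.14 to 0.23 (Sdhd), -0.097 to 0.0041 (Sdhc), -0.017 to 0.21 (Uqcrb), -0.0083 to 0.52 (Cox6c), -0.43 to 0.0055 (Cox7c) and -0.20 to 0.24 (Atp5g2). Genes higher at an unadjusted p under 0.05 were 859 unscaled, 333 with a minimum of 6 and 988 with no filter. Left unscaled, all genes tested had a median of 0.15 and the 48 a median of 0.35. Unscaled, total-read and quantile scaling gave 44 of 48 above 0; they turned Sdhc (0.087, 0.038 and 0.072), Cox5a and Cox6b1 above 0, and quantile scaling turned Atp5g2 to -0.0028. Under the filters, scalings and pseudocount of 10, the medians of the list and of each complex moved by less than the spread between replicates. That spread was wide, at 0.22 for the list beside a median of 0.22. For complexes I and III it was 0.26 and 0.24, beside medians of 0.42 and 0.26. For complexes II, IV and V it was 0.21, 0.22 and 0.20, above their medians of 0.096, 0.14 and 0.15. The check therefore says little about how stable these medians are. No trend, the robust fit and voom weights turned 0 of the 48. Settings chosen after seeing the data were counting Ndufa4 with complex IV, and leaving out genes with over 20% shared sequence. The latter gave a list median of 0.24.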
